A study of Mus musculus with 18 samples.

Results

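The NRF2 antioxidant programme was followed in mouse liver through 10 of the 16245 genes in the count table, taken by name as members of the pathway, with earlier results of these data known. They were Nfe2l2 (which encodes NRF2), Keap1, Gclc, Gclm, Gsr, Srxn1, Txnrd1, Nqo1, Hmox1 and Ephx1, and all 10 had an adjusted p value in every comparison. The 18 liver samples came from male wild-type mice labelled C57BL/6, on the C57BL/6J background per the study's methods, 6 in each of the Vehicle, GDF15 and PairFed groups. Bulk RNA-seq gave 16508864 to 35301853 counts per library. The vehicle libraries held 18059478 to 23215915 counts, the GDF15 libraries 16508864 to 25001486 and the pair-fed libraries 17180057 to 35301853.

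All groups ate a NASH diet, which produces fatty, inflamed liver, and lived at about 29 °C from 8 weeks of age, singly housed once assigned to treatment. GDF15 is a stress-induced hormone that lowers food intake through a brainstem receptor, and it was given as the recombinant protein under the skin every day. Pair-fed mice were limited to what the GDF15-treated mice had eaten on the previous day, so GDF15 against pair-fed compares livers at equal food intake. Daily doses in the protocol ranged from 0.3 to 5 nmol per kg, and the labels do not say which of them these livers received, while the study's text and figure legend name different doses for them. No mouse on a standard diet was among the samples, so the level of these genes in healthy liver was not analysed here.

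NRF2 is a transcription factor that is held at low abundance by KEAP1, an adaptor that presents it to a CUL3 ubiquitin ligase for destruction. Electrophiles and oxidants modify cysteines of KEAP1, NRF2 then escapes degradation, pairs with a small MAF protein and binds antioxidant response elements, and BACH1 competes for the same elements. In liver its targets make and recycle glutathione, supply the thioredoxin system and detoxify quinones, epoxides and haem. Because this control acts largely on the protein, the Nfe2l2 transcript is not a measure of NRF2 activity.

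Promoter letters are shown for 3 genes that moved differently, namely Srxn1, which had the largest decrease of the 10, Gclm, which did not pass the test, and Nqo1, which decreased. RefSeq entries of the GRCm38.p6 assembly were found for 7 of the 10 genes. The windows run from 180 to 21 bases before the RefSeq start, at chr2:152105344-152105503 (+ strand), chr3:122245377-122245536 (+ strand) and chr8:107403226-107403385 (- strand), and are written 5′ to 3′ along the gene with matches to the core of the antioxidant response element in capitals.
Srxn1: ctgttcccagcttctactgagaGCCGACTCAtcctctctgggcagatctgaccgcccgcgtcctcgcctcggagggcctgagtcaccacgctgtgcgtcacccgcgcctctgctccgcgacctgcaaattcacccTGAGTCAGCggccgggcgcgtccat
Gclm: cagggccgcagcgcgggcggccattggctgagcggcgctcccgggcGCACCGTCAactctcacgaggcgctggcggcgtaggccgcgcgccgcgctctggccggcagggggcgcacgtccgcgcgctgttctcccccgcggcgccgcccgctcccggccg
Nqo1: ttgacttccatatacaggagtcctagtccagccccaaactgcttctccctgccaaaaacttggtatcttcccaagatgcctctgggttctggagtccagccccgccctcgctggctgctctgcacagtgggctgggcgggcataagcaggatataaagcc
The core was searched on both strands as TGACNNNGC or TGAGNNNGC, so a match on the opposite strand appears in capitals as its reverse complement. Srxn1 held 2 matches, from 158 to 150 bases before the start on the opposite strand and from 45 to 37 bases before it on the gene's strand. The second of these also spelled the longer form TGAGTCAGC and contains TGAGTCA, which AP-1 and MAF sites share. The window of Gclm held 1 match, from 134 to 126 bases before the start on the opposite strand, and that of Nqo1 held none.

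In the full 250 bases before each start, 4 of the 7 genes had a core match (Nfe2l2, Srxn1, Gclm and Txnrd1), as did 25.7% of the 27025 gene symbols with a RefSeq promoter. The match of Nfe2l2 lay 240 to 232 bases before its start, on the gene's strand. Txnrd1 has 3 starts, and its match lay 92 to 84 bases before 1 of them, on the opposite strand. The longer form TGACTCAGC or TGAGTCAGC occurred in 0.796% of gene symbols and, of the 7 genes, in Srxn1. These are matches of letters and were not read as binding sites. Bases further upstream were not searched, so a gene without a match here may hold one elsewhere. Gclc, Hmox1 and Gsr had no entry.

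Against vehicle, 7 of the 10 genes fell in GDF15-treated livers and 0 rose at a DESeq2 adjusted p below 0.05. Of all 16242 genes tested, 15.8% were lower and 14.3% higher by the same rule. The genes that fell were Srxn1, Ephx1, Nqo1, Nfe2l2, Hmox1, Gclc and Gsr, and those that did not pass were Keap1, Gclm and Txnrd1. Against pair-fed mice, 6 of the 10 fell and 0 rose, where 12.2% of all genes were lower and 11.8% higher. These were the same genes without Hmox1. The median log2 fold change of the 10 genes was -0.49 against vehicle and -0.33 against pair-fed, beside -0.00 and -0.01 over all genes tested.

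Pair-feeding itself changed 0 of the 10 genes against vehicle, and 0% of all genes were called in that comparison. By an unadjusted p below 0.05, DESeq2 picked 1 of the 10 (Hmox1) and 718 of the 16242 genes (4.42%), while edgeR's quasi-likelihood test picked 0 of the 10 and 620 of 12992 genes (4.77%) and also called 0 after adjustment. The 2 comparisons of GDF15 use the same 6 treated livers, so their values are set side by side below and neither is a repeat of the other. Normalised counts, which are counts divided by DESeq2 size factors, are given as lowest, median and highest of 6 livers, and fold changes on the log2 scale with their standard error.

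**Figure D1:**
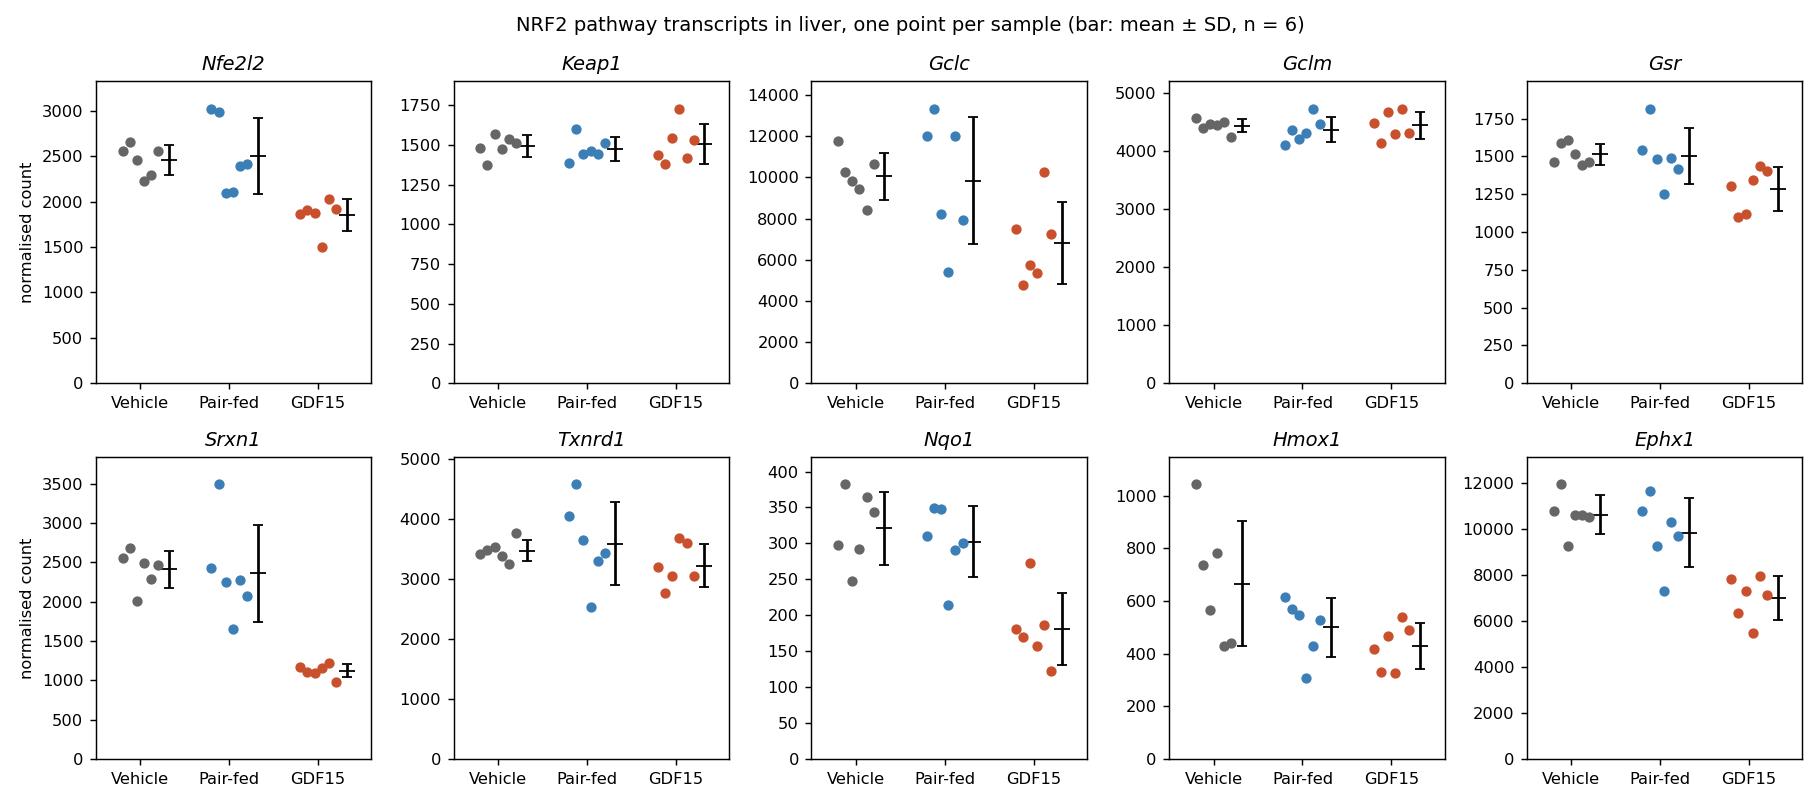
Normalised counts of the 10 NRF2 pathway genes (vertical axes, starting at 0) in the livers of the Vehicle, Pair-fed and GDF15 groups, with 1 point per liver sample and a bar for the mean ± SD (n = 6). All 6 GDF15 points of Nfe2l2 and Srxn1 lie below every point of both control groups, whereas the Keap1 and Gclm points overlap in all groups.

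Nfe2l2 (chr2:75675513-75704641, GRCm38, - strand) encodes NRF2. Its normalised counts were 2228, 2507 and 2657 in vehicle, 2091, 2402 and 3025 in pair-fed and 1504, 1891 and 2024 in GDF15-treated livers. Every treated liver lay below every liver of both control groups, and the control groups overlapped. Expression fell by 24.8% against vehicle (log2 fold change -0.41 ± 0.10, DESeq2 adjusted p = 0.000241) and fell by 26.1% against pair-fed (-0.44 ± 0.10, adjusted p = 0.000122).

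Keap1 (chr9:21229730-21239361, - strand), the negative regulator, did not pass the test in any comparison. Counts were 1376, 1496 and 1572 in vehicle, 1387, 1454 and 1604 in pair-fed and 1382, 1484 and 1730 in GDF15-treated livers, so the groups overlapped throughout. The log2 fold change was 0.01 ± 0.06 against vehicle, with a 95% interval of -0.10 to 0.12, and 0.03 ± 0.06 against pair-fed, with an interval of -0.08 to 0.14. Exons of the antisense gene Gm16754 overlap Keap1 in the annotation. The kit marks strand, but whether the quantification used it is not given in the sources used here.

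In the glutathione branch, GCLC and GCLM are the catalytic and modifier subunits of glutamate-cysteine ligase, the rate-limiting enzyme of glutathione synthesis, and GSR returns oxidised glutathione to its reduced form. The ligase subunits moved differently. Gclc (chr9:77754535-77794485, + strand) had 8432, 10030 and 11762 counts in vehicle, 5411, 10113 and 13349 in pair-fed and 4759, 6495 and 10245 in GDF15-treated livers. Of the treated livers, 5 lay below all vehicle livers and 2 below all pair-fed livers. The pair-fed group was itself spread over both other groups. Gclc fell by 32.3% against vehicle (-0.56 ± 0.20, DESeq2 adjusted p = 0.0166) and fell by 30.7% against pair-fed (-0.53 ± 0.20, adjusted p = 0.0296).

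Gclm (chr3:122245557-122270732, + strand) had 4242, 4455 and 4563 counts in vehicle, 4111, 4336 and 4724 in pair-fed and 4143, 4405 and 4734 in GDF15-treated livers. All groups overlapped, and the SD in vehicle was 2.47% of the mean, the smallest such share among the 10 genes in that group. The log2 fold change was 0.00 ± 0.04 against vehicle (95% interval -0.08 to 0.08) and 0.02 ± 0.04 against pair-fed (-0.06 to 0.11). A pseudogene (Gm6061) and a transcript on the opposite strand (Gm17494) overlap its exons, so part of its reads could have been assigned either way.

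Gsr (chr8:33652523-33698163, + strand) had 1444, 1492 and 1606 counts in vehicle, 1253, 1486 and 1816 in pair-fed and 1097, 1326 and 1434 in GDF15-treated livers. All treated livers lay below all vehicle livers, by a narrow margin, while 2 of 6 lay below all pair-fed livers. Gsr fell to 0.848 of the vehicle level (-0.24 ± 0.08, DESeq2 adjusted p = 0.0186) and to 0.856 of the pair-fed level (-0.22 ± 0.08, adjusted p = 0.0329).

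Calls for Gclc and Gsr depended on individual livers. Against vehicle, Gclc missed the threshold without GDF15 replicate 2 (adjusted p = 0.0511 by DESeq2), and Gsr without vehicle replicate 2, GDF15 replicate 2 or GDF15 replicate 3 (adjusted p = 0.0501, 0.0595 and 0.0593). Against pair-fed, Gclc was lost without GDF15 replicate 2, 3 or 4 or pair-fed replicate 1, 2 or 5 (adjusted p = 0.0807, 0.0666, 0.0691, 0.0834, 0.110 and 0.0825) and by edgeR (0.0504), and Gsr without GDF15 replicate 2 or 3 or pair-fed replicate 1, 2, 3 or 5 (0.0931, 0.0873, 0.0669, 0.115, 0.0506 and 0.0516).

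The thioredoxin branch held the largest decrease. SRXN1, sulfiredoxin, reactivates peroxiredoxins that have been over-oxidised by peroxide, and TXNRD1 is the cytosolic thioredoxin reductase. Srxn1 (chr2:152105516-152111376, + strand), whose promoter letters are given above, had 2005, 2474 and 2684 counts in vehicle, 1651, 2261 and 3494 in pair-fed and 976, 1134 and 1224 in GDF15-treated livers. No treated liver reached the lowest liver of either control group. The treated group was also the tightest for this gene, with an SD of 7.56% of the mean against 9.81% in vehicle and 26.1% in pair-fed.

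Srxn1 fell by 53.5% against vehicle (-1.10 ± 0.13, DESeq2 adjusted p = 3.17e-15) and fell by 52.4% against pair-fed (-1.07 ± 0.13, adjusted p = 3.65e-14). It was the 1 gene of the 10 with an absolute log2 fold change above 1, the fold threshold of the study, in either comparison. That threshold with the adjusted p was met by decreases in 4.85% of all genes against vehicle and in 2.43% against pair-fed.

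Txnrd1 (chr10:82833951-82897712, + strand) had 3244, 3452 and 3767 counts in vehicle, 2540, 3536 and 4578 in pair-fed and 2758, 3124 and 3678 in GDF15-treated livers. Here 4 of the treated livers lay below all vehicle livers, but 2 did not, and none lay below all pair-fed livers. It did not pass the test against vehicle (-0.11 ± 0.11, 95% interval -0.32 to 0.10, DESeq2 adjusted p = 0.471) or pair-fed (-0.16 ± 0.11, -0.37 to 0.06, adjusted p = 0.297). The second of these rested on pair-fed replicate 4, without which Txnrd1 was lower (-0.24, adjusted p = 0.0306).

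**Figure D2:**
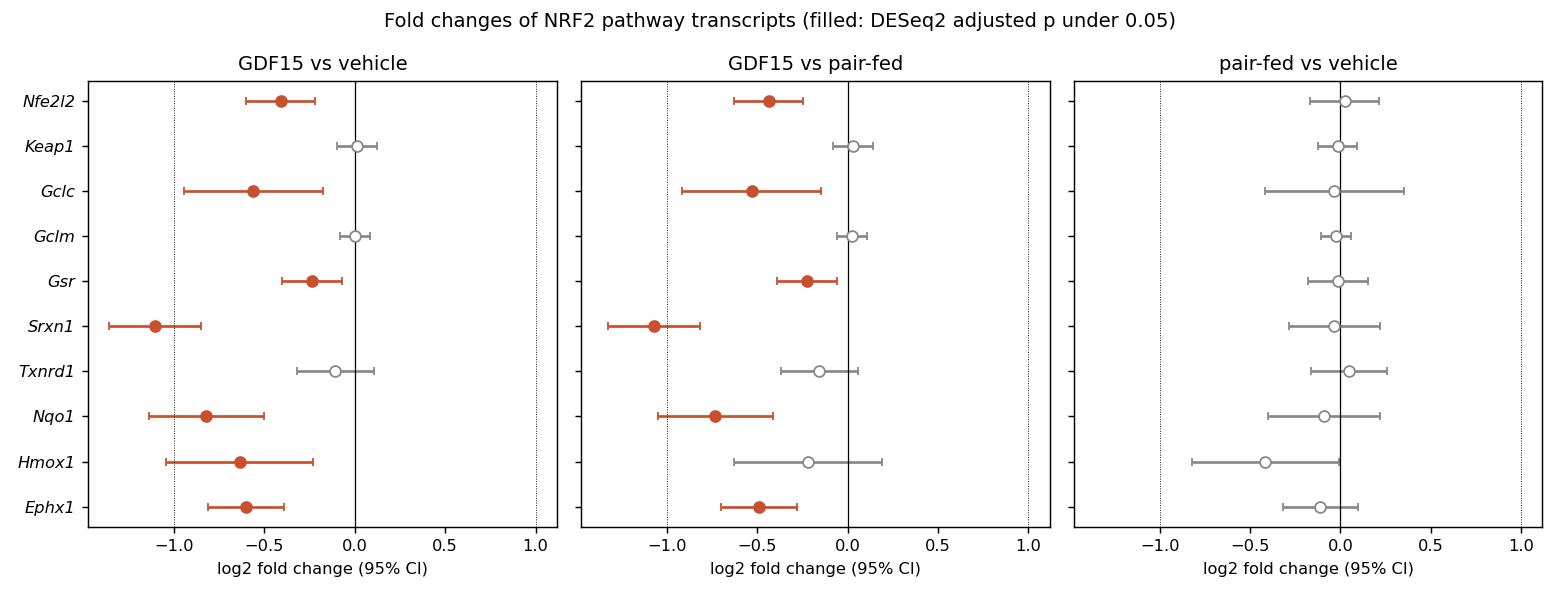
Log2 fold changes of the 10 genes (points) with 95% confidence intervals (bars) in GDF15 against vehicle, GDF15 against pair-fed and pair-fed against vehicle. Filled points have a DESeq2 adjusted p below 0.05 and dotted lines mark a log2 fold change of 1 in either direction, which Srxn1 passes at -1.10 and -1.07.

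Among the detoxifying enzymes, NQO1 reduces quinones without releasing radicals, EPHX1 hydrolyses epoxides, and HMOX1 opens haem to biliverdin, iron and carbon monoxide. Nqo1 (chr8:107388225-107403206, - strand) had 248, 321 and 382 counts in vehicle, 214, 306 and 349 in pair-fed and 122, 175 and 272 in GDF15-treated livers. In each comparison 5 of the 6 treated livers lay below all controls, and replicate 3 was the exception. Nqo1 fell by 43.4% against vehicle (-0.82 ± 0.16, DESeq2 adjusted p = 6.33e-06) and fell by 39.8% against pair-fed (-0.73 ± 0.16, adjusted p = 9.42e-05).

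Ephx1 (chr1:180976210-181020904, - strand) had 9241, 10617 and 11938 counts in vehicle, 7285, 9988 and 11664 in pair-fed and 5474, 7212 and 7937 in GDF15-treated livers. All treated livers lay below all vehicle livers and 3 below all pair-fed livers, where pair-fed replicate 4 was the low one. Ephx1 fell by 34.1% against vehicle (-0.60 ± 0.11, DESeq2 adjusted p = 3.76e-07) and fell by 28.8% against pair-fed (-0.49 ± 0.11, adjusted p = 6.73e-05). The pseudogene Gm36961 overlaps its exons on the same strand.

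Hmox1 (chr8:75093621-75100589, + strand) was the gene with the largest fold change between the control groups. Its counts were 428, 651 and 1044 in vehicle, 308, 538 and 615 in pair-fed and 328, 441 and 540 in GDF15-treated livers. The vehicle group was the widest, with an SD of 35.5% of the mean, and 3 of 6 treated livers lay below all of it. Hmox1 fell by 35.7% against vehicle (-0.64 ± 0.21, DESeq2 adjusted p = 0.00988), but the call was lost without vehicle replicate 1, the highest liver (-0.46, adjusted p = 0.0600). It did not pass against pair-fed (-0.22 ± 0.21, 95% interval -0.63 to 0.19, adjusted p = 0.462), and in pair-fed against vehicle the log2 fold change was -0.42 ± 0.21 (adjusted p = 0.998).

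Counted by overlap of the groups, all 6 treated livers lay below all 6 vehicle livers in 4 of the 10 genes (Nfe2l2, Srxn1, Gsr and Ephx1). This held for 7.13% of the 10883 genes with a mean normalised count of at least 50. Against pair-fed it held for 2 of the 10, Nfe2l2 and Srxn1, beside 5.5% of those genes. In pair-fed against vehicle it held for 0 of the 10 in either direction, beside 0.0919% of genes below and 0.138% above.

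The livers were also split by replicate number into replicates 1 to 3 and 4 to 6, which left 3 livers per group in each set. Srxn1, Nqo1 and Nfe2l2 were lower in both sets against both control groups, and Ephx1 in both against vehicle. Against vehicle the log2 fold change of Gclc was -0.82 ± 0.19 in replicates 1 to 3 and -0.32 ± 0.35 in replicates 4 to 6 (DESeq2 adjusted p = 0.591). That of Gsr was -0.40 ± 0.11 and -0.08 ± 0.09 (adjusted p = 0.590), and that of Hmox1 -0.94 ± 0.20 and -0.28 ± 0.28 (adjusted p = 0.526). Against pair-fed, Gclc was -0.90 ± 0.19 in replicates 1 to 3 and -0.14 ± 0.35 in replicates 4 to 6 (adjusted p = 0.837), and Gsr -0.45 ± 0.11 and 0.01 ± 0.09 (0.951). Txnrd1 was called in replicates 1 to 3 (-0.44 ± 0.10, adjusted p = 0.000235) and not in replicates 4 to 6 (0.16 ± 0.13, 0.466). Nqo1 had the larger fold change in replicates 4 to 6, at -0.57 and then -1.10 against vehicle. The difference between the sets was not tested. The 3 larger pair-fed libraries (replicates 4 to 6) held 25047723 to 35301853 counts and the other 3 (replicates 1 to 3) held 17180057 to 17926397. Both splits therefore use the same pair-fed livers, and depth and replicate number cannot be told apart in that group. Against the 3 larger libraries Gclc and Gsr were not called (-0.31 and -0.11, DESeq2 adjusted p = 0.393 and 0.459). Against the 3 smaller libraries Txnrd1 was lower (-0.35, adjusted p = 0.00220).

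Ratios within a library do not depend on the scaling between libraries, and 3 pairs of partners were formed after their values had been seen, as a description with no test. The ratio of Srxn1 to Txnrd1 counts was 0.697 ± 0.0751 in vehicle, 0.654 ± 0.0631 in pair-fed and 0.351 ± 0.0327 in GDF15-treated livers (SD, n = 6). The highest treated liver (0.403) stood below the lowest control liver (0.567). The ratio of Nfe2l2 to Keap1 was 1.65 ± 0.168, 1.70 ± 0.285 and 1.24 ± 0.198 in the same order, and again no treated liver (highest 1.43) reached a control liver (lowest 1.44), though pair-fed replicate 4 came close.

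For Gclc to Gclm, the catalytic to the modifier subunit, the ratio was 2.27 ± 0.262 in vehicle, 2.25 ± 0.706 in pair-fed and 1.52 ± 0.389 in GDF15-treated livers. Here 5 of the 6 treated livers lay below all vehicle livers, whereas the pair-fed livers ran from 1.26 to 3.06 and overlapped both groups. These are ratios of counts and not of molecules, because the transcripts differ in length.

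**Figure D3:**
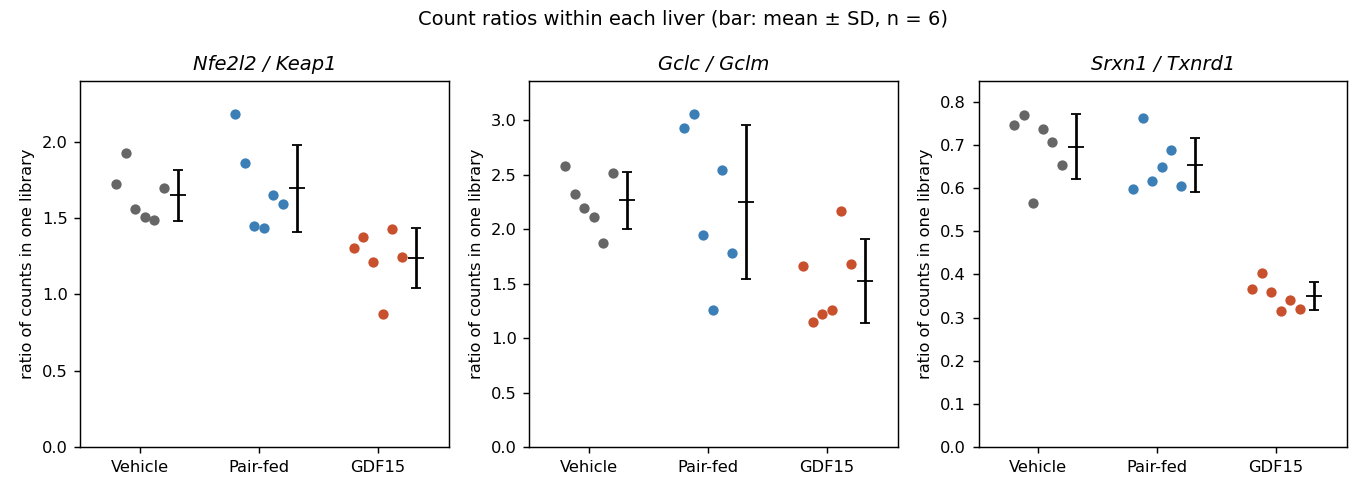
Ratio of normalised counts within each library for Nfe2l2 to Keap1, Gclc to Gclm and Srxn1 to Txnrd1 (vertical axes, starting at 0), with 1 point per liver sample and a bar for the mean ± SD (n = 6). For Srxn1 to Txnrd1 the GDF15 points lie between 0.315 and 0.403 and the control points between 0.567 and 0.769.

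Within the pair-fed and GDF15 groups, single livers were often at the edge of several genes. Pair-fed replicate 4 was the lowest pair-fed liver in 7 of the 10 genes and replicate 2 the highest in 7, and among treated livers replicate 5 was the highest in 7 and replicate 2 the lowest in 5. In the vehicle group no liver was lowest or highest in more than 4. After the group means were removed, the 45 pairs of genes had a median Pearson correlation of 0.412 over the 18 livers. It was above 0.5 in 17 pairs and below 0 in 7. The share among other pairs of genes was not taken, so these values are not read as particular to the 10 genes.

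The closest pairs were Gclc with Ephx1 (0.81), Txnrd1 with Gsr (0.80) and Srxn1 with Txnrd1 (0.78). Keap1 was below 0 with 5 of the other 9 genes, lowest with Ephx1 (-0.35) and Nfe2l2 (-0.32), and above 0 with 4, highest with Txnrd1 (0.32) and Gsr (0.25). The 18 values behind each coefficient share library and size factor, and they are given as a description.

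**Figure D4:**
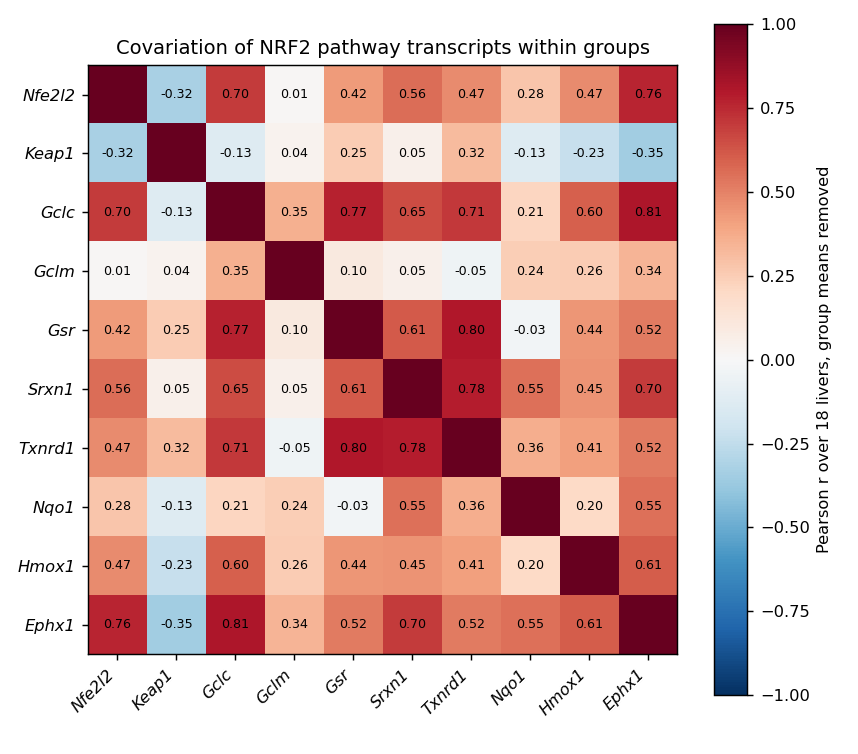
Pearson correlation between each pair of the 10 genes over 18 livers, on log2(normalised count + 1) after subtraction of each group's mean (colour and printed value). The warm block joins Gclc, Ephx1, Gsr, Txnrd1 and Srxn1, whereas the rows of Keap1 and Gclm are pale, with Keap1 reaching -0.35. With the genes of that block, Nfe2l2 had 0.76 (Ephx1), 0.70 (Gclc), 0.56 (Srxn1), 0.47 (Txnrd1) and 0.42 (Gsr).

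Levels were compared between genes per kilobase of the longest coding transcript in GENCODE, averaged over the 18 livers. Ephx1 was highest at 5253 normalised counts per kb, followed by Gclc (2599), Txnrd1 (946), Nfe2l2 (917), Gclm (790), Srxn1 (699), Gsr (536), Keap1 (413), Hmox1 (339) and Nqo1 (173). Of the 9 neighbouring pairs in this order only Gclc and Txnrd1 had ranges that did not overlap over the 18 livers. By the longest transcript, the order of means also changed between groups. Mean Nfe2l2 was above Txnrd1 in vehicle (993 and 958 per kb) and below it in GDF15-treated livers (747 and 889), and mean Srxn1 was above Gclm in vehicle (858 and 794) and below Keap1 in treated livers (399 and 417). Gclm has coding transcripts of very different length, and with the median length (1002 bases in place of 5589) it moved to second. By the median length, mean Txnrd1 was above Nfe2l2 in vehicle (1044 and 993 per kb) and in GDF15-treated livers (969 and 747). Mean Gclm was then above Srxn1 in vehicle (4428 and 858), and Srxn1 was still below Keap1 in treated livers (399 and 478). Nqo1 and Hmox1 were thus at the low end, and Nqo1 rested on 122 to 382 normalised counts per liver.

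Around these 10 genes, 82 others were counted in 9 lists of regulators, partner enzymes and neighbouring pathways. Of the 82, 32 were lower and 17 higher against vehicle, with a median log2 fold change of -0.12. Against pair-fed 19 were lower and 13 higher, with a median of -0.07, and in pair-fed against vehicle 0 were called. Of all genes tested, 15.8% were lower and 14.3% higher against vehicle, and 12.2% and 11.8% against pair-fed. Among genes with a mean normalised count of at least 50, 16.2% were lower and 20.5% higher against vehicle. Against pair-fed those shares were 14.1% and 17%. The lists are described one by one, and their counts stand beside these shares.

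Among 10 regulators of NRF2, 2 were lower and 3 higher against vehicle, and 0 were lower and 2 higher against pair-fed. Mafg, a small MAF partner, was higher (0.43 ± 0.06, DESeq2 adjusted p = 6.55e-10 against vehicle and 0.36 ± 0.06, adjusted p = 5.15e-07 against pair-fed), as was Bach1, the repressor (0.32 ± 0.10, adjusted p = 0.00795 and 0.30 ± 0.10, adjusted p = 0.0150). Mafk, another small MAF, was lower against vehicle (-0.43 ± 0.12, adjusted p = 0.00161). The others were Cul3, the ligase scaffold, which was higher (0.16), and Sqstm1, an autophagy receptor that binds KEAP1, which was lower (-0.27).

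In the glutathione cycle 4 of 10 were lower and 1 higher against vehicle, and 2 were lower and 0 higher against pair-fed. Gss, which completes glutathione synthesis after the ligase, fell (-0.84 ± 0.13, DESeq2 adjusted p = 2.52e-08 against vehicle and -0.69 ± 0.13, adjusted p = 8.23e-06 against pair-fed). Gpx4, the peroxidase that reduces lipid peroxides, fell by a similar amount (-0.85 ± 0.09, adjusted p = 6e-17 and -0.74 ± 0.09, adjusted p = 6.8e-13). Ggct, which splits gamma-glutamyl amino acids, was lower against vehicle (-0.42) and the glutaredoxin gene Glrx higher (0.21), and Gpx2 was called at 0 to 14.4 counts per vehicle liver, too few for a fold to be given.

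The 11 thioredoxin and peroxiredoxin genes were split, with 3 lower and 4 higher against vehicle and 1 lower and 3 higher against pair-fed. Mitochondrial Prdx3 was lower (-0.39 ± 0.04, DESeq2 adjusted p = 3.64e-17 against vehicle and -0.34 ± 0.04, adjusted p = 5.82e-13 against pair-fed). Prdx4 of the endoplasmic reticulum was higher (0.42 ± 0.06, adjusted p = 1.79e-12 and 0.43 ± 0.05, adjusted p = 1.26e-12). Txnrd3 (0.45) and Prdx6 (0.20) were also higher against vehicle, and Prdx6 against pair-fed (0.20). Among 6 genes listed around NADPH supply, 2 were lower and 1 higher in each comparison. Tkt (-0.38 and -0.41) and Taldo1 (-0.33 and -0.25) were lower, and these enzymes of the pentose phosphate pathway do not themselves form NADPH. Cytosolic Idh1, whose enzyme does, was higher (0.20 and 0.20), and the other 3 genes were not called in either comparison.

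Conjugation and carbonyl reduction was the largest list, with 13 of 19 lower and 2 higher against vehicle and 10 lower and 2 higher against pair-fed. Cbr3, a carbonyl reductase, had a mean of 116 ± 40.2 normalised counts in vehicle, 102 ± 52.2 in pair-fed and 14.3 ± 3.94 in GDF15-treated livers (SD, n = 6), and its log2 fold change was -3.02 ± 0.35 against vehicle (DESeq2 adjusted p = 7.96e-16) and -2.81 ± 0.35 against pair-fed (1.22e-13). Gsta1 had 794 ± 297, 681 ± 355 and 44.3 ± 20.2 counts in the same order (-4.16 ± 0.38, adjusted p = 2.63e-24, and -3.93 ± 0.38, adjusted p = 1.39e-21). Gstm3 was also lower (-1.83 and -1.31). Some glutathione S-transferase genes of one class are closely similar in sequence, so the split of reads between Gsta1 and Gsta2 or among the Gstm genes is uncertain. Ugdh, which makes UDP-glucuronate for glucuronidation, was lower as well (-0.61 and -0.69).

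Of 5 efflux pumps for conjugates, 4 were lower and 0 higher against vehicle, with Abcc4 at -1.14, Abcc1 at -0.59, Abcc5 at -0.58 and Abcc3 at -0.49, and Abcc2 did not pass (0.01). Against pair-fed 2 were lower, Abcc3 (-0.51) and Abcc5 (-0.44). Among 8 haem and iron genes 2 were lower and 1 higher against vehicle. Hmox2, the constitutive haem oxygenase, was higher (0.35 ± 0.05, DESeq2 adjusted p = 1.14e-09 against vehicle and 0.32 ± 0.05, adjusted p = 5.57e-08 against pair-fed), and the ferritin heavy chain Fth1 was lower (-0.23 and -0.23), as was the biliverdin reductase Blvrb against vehicle (-0.19). Among the 5 genes of the list of direct scavengers, extracellular Sod3 was lower (-0.54 and -0.46) and cytosolic Sod1 higher (0.32 and 0.29) in both comparisons. Sod2 (0.07 and 0.05), Cat (0.18 and 0.12) and Osgin1 (0.08 and 0.03) did not pass in either. Osgin1 is an oxidative stress response gene and does not encode a scavenging enzyme.

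Of the targets of CAR and PXR, nuclear receptors that also control detoxifying enzymes, 1 of 8 was lower and 4 higher against vehicle, and 0 were lower and 3 higher against pair-fed. Cyp2b10, a CAR target, was higher (2.62 ± 0.60, DESeq2 adjusted p = 0.000128 against vehicle and 2.94 ± 0.60, adjusted p = 2.09e-05 against pair-fed), from a mean of 17.9 ± 17.2 counts in vehicle to 110 ± 108 in GDF15-treated livers (SD, n = 6). Cyp3a13 (0.62 and 0.67) and Ugt1a1 (0.34 and 0.28) were also higher in both, and Por, the electron donor of cytochromes P450, against vehicle (0.99). The gene that was lower was Cyp3a11, an abundant PXR target, with means of 34548 ± 6001 normalised counts in vehicle, 31636 ± 7086 in pair-fed and 25789 ± 6532 in GDF15-treated livers (SD, n = 6). Its log2 fold change was -0.42 ± 0.17 against vehicle (DESeq2 adjusted p = 0.0458) and -0.29 ± 0.17 against pair-fed (adjusted p = 0.203).

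**Figure D5:**
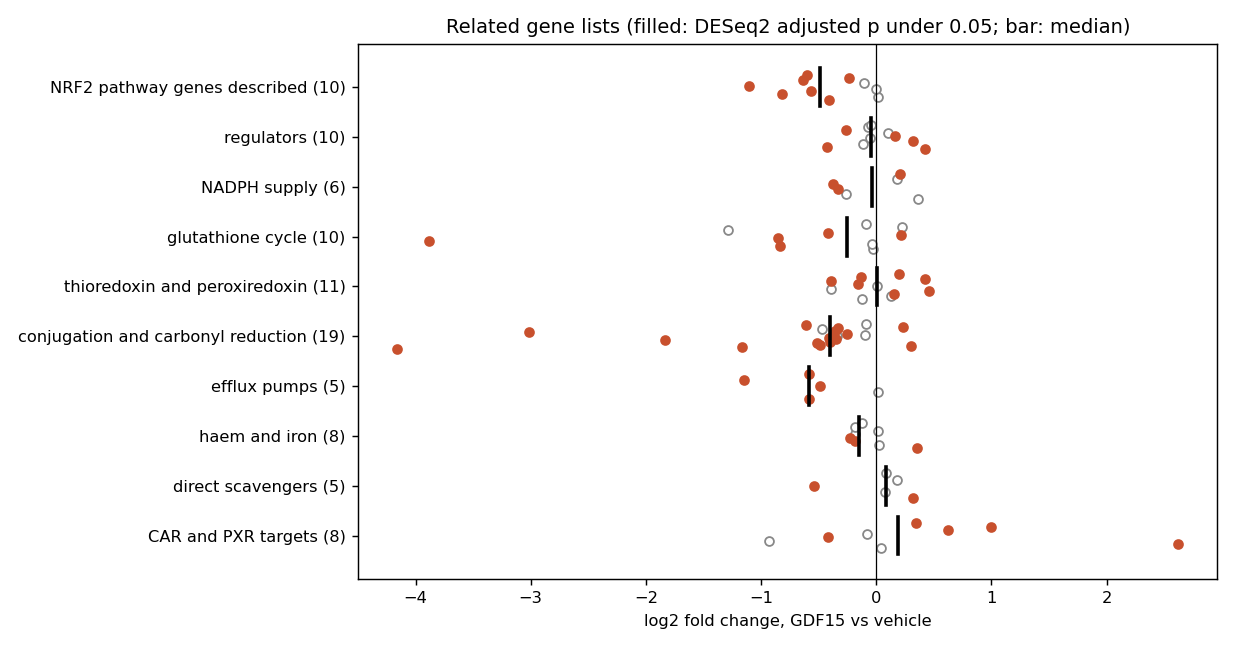
Log2 fold change in GDF15 against vehicle for the 10 genes and for the 9 related lists, with the number of genes in brackets. Points are genes, filled where the DESeq2 adjusted p is below 0.05, and black bars are list medians, which run from -0.58 for the efflux pumps to 0.19 for the CAR and PXR targets.

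Markers of other liver cells moved with treatment, and in bulk tissue fewer cells of a type and less RNA per cell cannot be told apart. Of 12 macrophage markers, 8 were lower and 0 higher against vehicle and 7 lower against pair-fed. The 4 not called against vehicle were Clec4f, Vsig4, Marco and Timd4. Their mean normalised counts were 1072, 280, 70.1 and 26.6 in vehicle and 1190, 269, 116 and 54.5 in GDF15-treated livers. The summed normalised count of the 12 was 4772 to 9719 in vehicle, 4712 to 7729 in pair-fed and 3133 to 6307 in GDF15-treated livers, and 0 of the 12 were at 0 in any liver. With the group means removed, this sum had a Pearson correlation over the 18 livers of 0.60 with Nqo1, 0.55 with Hmox1, 0.49 with Srxn1, 0.47 with Ephx1, 0.28 with Nfe2l2, 0.25 with Gclc, 0.23 with Txnrd1, 0.12 with Gclm, -0.02 with Gsr and -0.33 with Keap1.

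Of 8 stellate cell and fibroblast markers, 8 were lower against vehicle and 7 against pair-fed, and their sum was 8230 to 14214 in vehicle, 7515 to 11642 in pair-fed and 4238 to 6292 in GDF15-treated livers. All 6 cholangiocyte markers were lower against vehicle and 1 (Spp1) against pair-fed, where the other 5 were not called. Their sums were 2372 to 8649, 2159 to 6026 and 1030 to 2097 in the same order. Spp1 made up most of these sums. Its means were 4867, 3145 and 1227 normalised counts, where the means of the sum were 5310, 3446 and 1450. Hepatocyte markers went the other way, with 6 of 7 higher in each comparison and 0 lower. The lists for endothelium, T, B and NK cells and erythroid cells had 1, 0 and 0 markers lower against vehicle. The part of these markers in the decreases of the 10 genes was not tested.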

How the data were processed

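RNA-seq was measured in 18 mouse livers (6 Vehicle, 6 GDF15, 6 PairFed, numbered in the titles). Libraries were stranded (directional kit). The submitters' processing notes name Trim Galore, Salmon, DESeq2 and the mm10 build, and their versions are not given in the sources used here. The deposited values are estimated counts per gene, made by the authors with Salmon and not normalised. They were rounded to whole numbers. Gene positions came from GENCODE vM21 (GRCm38, the assembly of mm10).

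DESeq2 1.42.0 (R 4.3.3) was fitted to all 16245 genes and 18 samples with group as the term, median-of-ratios size factors and unshrunken fold changes. Wald p values were Benjamini-Hochberg adjusted over all genes and called below 0.05. Percentages of all genes use the 16242 genes with a p value as the denominator, and a gene that independent filtering left without an adjusted p counts as not called. Intervals are 95% and cover fold changes. edgeR 4.0.16 (quasi-likelihood, TMM, 12992 genes), other scalings, filters and subsets of samples were alternatives. The samples of a group are separate mice per the study's figure legends. Depths are given with the report and cover counting error only.

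The 10 genes, the pathway lists and the marker lists were chosen with earlier results of these data known. All 10 are named. Of each other list up to 4 genes with the smallest p against vehicle among those called are named, and any gene of a list of 5 or fewer may be named. Sqstm1, Glrx and Cyp3a11 lie outside this rule and were named after their values were seen, to complete counts of 5 or fewer. The macrophage markers Clec4f, Vsig4, Marco and Timd4 also lie outside it and were named after their values were seen. The 3 ratios were chosen after the values were seen. Motifs were searched in RefSeq promoters with Python 3.11.15.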

Additional observations from a re-analysis of the deposited data

Results flagged for a closer look

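The Nfe2l2 count of GDF15 replicate 4 was 1504 normalised counts, and the next treated liver had 1868. The gap to that liver was 0.700 of the range of the 6 treated livers, above the critical value of 0.625 for an outlying sample among 6. It was 1 of 39 groups of 6 examined in this way (the 10 genes and the 3 ratios in each group), and chance marks about 1 in 20 groups. Replicate 4 lies on the low side, and without it the log2 fold change of Nfe2l2 was -0.36 against vehicle and -0.38 against pair-fed (DESeq2 adjusted p = 0.00110 and 0.000567).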

How the results depend on the processing

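Counts of lower genes kept within 1.5 times of 7 (against vehicle) and 6 (against pair-fed) except that the added fold threshold of 1 left 1 and 1, by its own construction, and replicates 4 to 6 alone left 4 and 3. Leaving out each liver gave 5 to 7 and 4 to 7. In both GDF15 comparisons Srxn1 was called under every alternative run, and Nqo1 and Nfe2l2 under all but the fold threshold. TMM scaling in DESeq2 moved fold changes of the 10 genes by at most 0.0024, and edgeR, which also changes the model and the gene filter, by at most 0.012. Of the single-gene values, 39 lost and 3 gained a call and 49 changed sign. Those 49 were of genes not called in that comparison, apart from Gsr against pair-fed in replicates 4 to 6 (0.013). Ephx1 against pair-fed missed the threshold in replicates 4 to 6 (-0.40, DESeq2 adjusted p = 0.0597). A fit to the 12 samples compared lost Gclc and Gsr against pair-fed (adjusted p = 0.0607 and 0.0811). The cause was not tested.

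Against vehicle, Keap1 was -0.018 in replicates 1 to 3. Gclm was -0.0076 there, -0.0065 by edgeR and -0.0013 after a filter of 10 counts in 6 samples. Against pair-fed, Keap1 was -0.023 in replicates 1 to 3. In replicates 4 to 6 Gclm was -0.013, Txnrd1 0.16 and Hmox1 0.10, and against the 3 larger pair-fed libraries they were -0.017, 0.061 and 0.022. For pair-fed against vehicle, replicates 1 to 3 gave 0.0050 for Keap1, 0.12 for Nqo1, 0.081 for Gclc, 0.18 for Srxn1 and 0.059 for Gsr. The 3 smaller pair-fed libraries gave 0.064 for Nqo1, 0.16 for Gclc, 0.17 for Srxn1 and 0.094 for Gsr. Replicates 4 to 6 gave -0.039 for Nfe2l2, 0.028 for Gclm and -0.17 for Txnrd1, and the 3 larger libraries -0.097, 0.017 and -0.17. Both splits share their pair-fed livers, because the larger libraries are pair-fed replicates 4 to 6.

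With each liver left out, Keap1 ran from -0.028 to 0.037 and Gclm from -0.017 to 0.021 against vehicle, and Keap1 from -0.013 to 0.053 against pair-fed. For pair-fed against vehicle the ranges were -0.038 to 0.071 for Nfe2l2, -0.040 to 0.00053 for Keap1, -0.14 to 0.091 for Gclc, -0.18 to 0.052 for Srxn1, -0.035 to 0.13 for Txnrd1 and -0.076 to 0.033 for Gsr.

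The groups share replicate numbers, and the sample titles do not say that the numbers pair the livers. Same-numbered livers had mean correlations of -0.03, 0.03 and 0.20 in their deviations from the group means (GDF15 with vehicle, GDF15 with pair-fed, pair-fed with vehicle), and 2, 3 and 4 of 6 pairs were above 0.1. Livers of different number had means of 0.01, -0.01 and -0.04 in the same order, and the highest same-numbered value was 0.60, in pair-fed with vehicle. No comparison had every liver closest to its own number. A batch shared by number was not tested. With the replicate number as a block, 7 and 5 of the 10 genes were lower, Gsr against pair-fed being the one lost (-0.22, DESeq2 adjusted p = 0.0755). The lowest value among the 10 genes was 122 normalised counts (Nqo1), where counting error is largest.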

Other observations

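For each of the 10 genes, the genes that varied most like it within groups were ranked by Pearson correlation over the 18 livers, among the 10883 genes with a mean normalised count of at least 50. With so many genes and 18 livers, high coefficients are found for any gene, and they are given as values with no test. Gclc was closest to Clock (0.95), a core transcription factor of the circadian clock, then to Stk24 (0.91) and Stom (0.91). Hmox1 was closest to Smad3 (0.91), a transducer of TGF-beta signalling, then to Il1a and Acvrl1. Ephx1 was closest to Impact (0.89), Srxn1 to Mfap3 (0.89), Nqo1 to Tmc6 (0.87) and Nfe2l2 to Rnf19a (0.83).

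Txnrd1 was closest to Mlec (0.90), a lectin of the endoplasmic reticulum, and Gsr to the tubulin gene Tubb2a (0.89), which was also second for Txnrd1. Keap1 was closest to Rab18 (0.84) and Gclm to Cmip (0.77), the lowest leading coefficient of the 10. With the total count of the library, Txnrd1 had a correlation of -0.54 and Gsr of -0.48 within groups, and the other 8 genes lay between -0.37 and 0.34.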
